A study of Mus musculus with 2 samples.

Results

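Classical cadherins and nonclustered protocadherins were described in polyadenylated RNA of the mouse central nervous system at embryonic day 18. The genes were chosen by symbol: Cdh or Pcdh followed by a number, with an optional x for protocadherins, among protein-coding genes. This gave 35 genes, of which Cdh5, the cadherin of vascular endothelium, was left out, so 34 of 21474 protein-coding genes are described. The animals were C57BL/6J embryos of mixed sex, taken as littermates with male and female tissue pooled, and the labels name no mutation or treatment. RNA came from bulk tissue, so fewer cells of a type and less RNA per cell cannot be told apart. The 2 libraries are the biological replicates 1 and 2 of 1 group. The number of embryos behind each is not stated in the labels. There is no second condition and no test. The sections below give levels, the ratio between the libraries, transcript shares and splice junctions.

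Cadherins are membrane proteins with repeated extracellular domains that bind calcium and, in most members, join cells through the same cadherin on the neighbouring cell. Classical cadherins hold on to the actin cytoskeleton through catenins. Type I and type II classical cadherins differ in the interface by which they pair across the cell contact. Nonclustered protocadherins are scattered single genes with weaker adhesion, and the delta-1 and delta-2 groups are told apart by their cytoplasmic tails. Several delta protocadherins bind the WAVE complex, which drives actin branching. In the developing brain the families are known for neural tube integrity, neuron migration, axon growth and the choice of synaptic partners.

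Replicate 1 held 97513548 expected counts and replicate 2 held 142741622, and the 34 genes took 0.172% and 0.165% of the counts on genes. Levels are in TPM, a unit that corrects for length and depth, and ± gives the SD over n = 2 libraries. Detection required each library to reach 1 TPM. The tissue label was checked with marker lists. All 7 cortical neuron genes were detected, with summed TPM of 477 and 356 in replicates 1 and 2, led by Neurod6 and Neurod2. The libraries differed in markers of other tissues. Skeletal muscle genes summed to 14.98 TPM in replicate 1 and 634 in replicate 2 (led by Acta1 and Mylpf). Bone and cartilage genes summed to 11.4 and 56.1 TPM (Ibsp and Col2a1) and choroid plexus genes to 454 and 1441 (Ttr and Otx2). Ttr made up most of the choroid plexus sum at 427 and 1389 TPM, while Otx2 stood at 10.65 and 12.52. Meninges and fibroblast genes summed to 191 and 423 TPM (Col1a2 and Col1a1). Of these 8 genes 6 were higher in replicate 2 and 2 lower, and 2 were 2-fold or more higher. Slc6a13 stood at 21.2 and 21.6 TPM and Dcn at 52.2 and 40.1. Sensory ganglion genes summed to 12.4 and 58.3 TPM (Prph and Pou4f1) and endothelial genes to 167 and 164 (Cldn5 and Kdr). The part of these tissues in the levels below was not tested.

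Of the 34 genes 29 were detected (85.3%), against 13506 of 21474 protein-coding genes (62.9%). All 12 protocadherins and 17 of 22 cadherins were detected. The median level was 10.4 ± 0.41 TPM, against 6.01 ± 0.138 for all protein-coding genes. Among detected genes alone the order turned, with a median of 13.2 TPM for the 29 genes and 20.1 for 13506 coding genes. A total of 17 genes stood at 10 TPM or more in both libraries. The same count over all protein-coding genes was not computed, so it shows no trait of the families. A mean of 10.1 TPM, that of Cdh7, lay above 57.1% of protein-coding genes. Ranked by mean TPM, the ranges of both libraries overlapped in 18 of 33 neighbouring pairs, so many places in the order are not separated by these data. By the RPKM of a second quantification of the series, on the older build mm9, no gene differed in rank by more than 2 places.

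**Figure D1:**
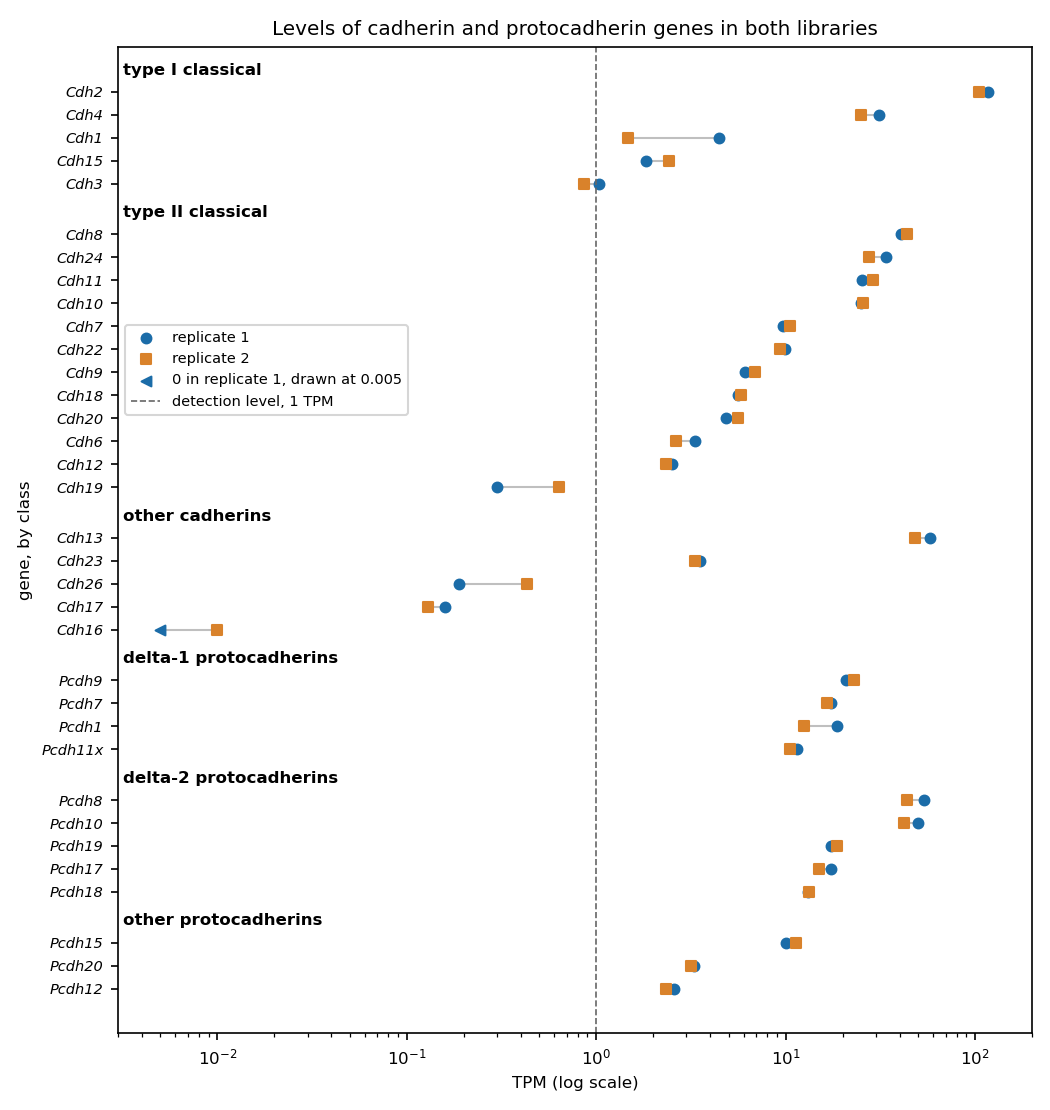
TPM of each gene (log axis) in replicate 1 (circles) and replicate 2 (squares), grouped by class and ordered by mean, with a dashed line at 1 TPM. Cdh2 stands apart at the top, the delta protocadherins lie above 10 TPM in both libraries, and Cdh19, Cdh26, Cdh17 and Cdh16 lie below 1 TPM in both.

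Type I classical cadherins were dominated by Cdh2, which encodes N-cadherin, the main adhesion protein of the neuroepithelium. Cdh2 (ENSMUSG00000024304, GRCm38 chromosome 18, 16588877 to 16809246, minus strand) reached 118 TPM in replicate 1 and 104 TPM in replicate 2. It was the highest of the 34 genes in both libraries and held 75.4% and 77.9% of the TPM of the 5 type I genes. Cdh4, which encodes R-cadherin of the retina and brain, followed at 31.1 and 24.9 TPM. Cdh1, which encodes E-cadherin of epithelia, stood at 4.43 and 1.48 TPM. Cdh15, M-cadherin of muscle and cerebellum, stood at 1.83 and 2.43 TPM. Cdh3, P-cadherin of epithelia, was at 1.03 TPM in replicate 1 and 0.86 in replicate 2, on either side of the detection level.

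Type II classical cadherins are known for marking brain regions and neuron groups by combinations of genes. Their summed level was 167 TPM in replicate 1 and 170 in replicate 2, spread over 12 genes of which 11 were detected. Cdh8 (chromosome 8, 99024471 to 99416471, minus strand) led at 40.7 and 43.7 TPM. Cdh24 followed at 33.9 and 27.5, Cdh11 at 25.3 and 29.1, and Cdh10 at 25.1 and 25.5 TPM. The ranges of Cdh24 and Cdh11 overlapped, as did those of Cdh11 and Cdh10, while that of Cdh8 lay above all 3. The Cdh11 count was not a whole number in either library, so the quantification shared some of its reads with another entry and its level is less certain.

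A middle group of type II genes lay between 4 and 11 TPM. Cdh7 stood at 9.65 and 10.5 TPM, Cdh22 at 9.89 and 9.32, Cdh9 at 6.12 and 6.92, Cdh18 at 5.64 and 5.80, and Cdh20 at 4.84 and 5.60. Lower still were Cdh6 at 3.32 and 2.64 TPM and Cdh12 at 2.53 and 2.35. Cdh19, known from Schwann cell precursors, was at 0.30 and 0.64 TPM and was the single type II gene under the detection level.

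The remaining cadherins have little in common beyond the extracellular repeats. Cdh13 (chromosome 8, 118283733 to 119324921, plus strand) encodes T-cadherin, which lacks a transmembrane segment and is held by a lipid anchor. It was the second of the 34 genes by mean level, at 57.7 and 48.2 TPM, and its range overlapped with those of Pcdh8 and Pcdh10. Cdh23, a part of the tip link between the stereocilia of hair cells in the ear, stood at 3.53 and 3.34 TPM. Cdh26, known from epithelia, was at 0.19 and 0.43 TPM, Cdh17 of the gut at 0.16 and 0.13, and Cdh16 of the kidney at 0 and 0.01. Behind Cdh16 stood 0 counts in replicate 1 and 2 in replicate 2, under the 3 counts that a count of 0 allows.

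Delta-2 protocadherins were the higher of both delta groups, with summed levels of 151 and 133 TPM over 5 genes, against 68.1 and 62.6 over the 4 delta-1 genes. Pcdh8 (chromosome 14, 79766775 to 79771312, minus strand), known for removing cadherins from synapses on activity, stood at 53.6 and 43.6 TPM. Pcdh10 (chromosome 3, 45378398 to 45435623, plus strand), known in axon growth of the striatum, was at 49.8 and 42.2 TPM. The ranges of Pcdh8, Pcdh10, Cdh13 and Cdh8 chain together by overlaps, so these data do not separate them from the next in order, while all 4 lie under Cdh2. Pcdh19, the gene of an X-linked epilepsy, stood at 17.4 and 18.8 TPM, Pcdh17 at 17.4 and 15.1, and Pcdh18 at 13.1 and 13.2.

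Delta-1 protocadherins lay in a narrow band. Pcdh9 stood at 20.7 and 23.0 TPM, Pcdh7 at 17.3 and 16.6, Pcdh1 at 18.6 and 12.5, and Pcdh11x, which lies on the X chromosome, at 11.4 and 10.6. Of the other protocadherins, Pcdh15, the partner of Cdh23 in the tip link, stood at 10.04 and 11.35 TPM. Pcdh20 was at 3.28 and 3.16 TPM and Pcdh12, known from endothelium, at 2.58 and 2.33. Beside the tip link genes, 3 of 6 hair cell genes were detected, with summed TPM of 39.5 and 35.9, led by Myo7a at 23.4 and 21.6 and Otof at 12.8 and 11.2, while Tmc1 stood at 0.06 in both libraries. The part of ear tissue in the levels of Cdh23 and Pcdh15 was not tested.

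The protocadherins also varied in their coding sequence. Splice junctions came from a table of the whole series on mm9, in which reads of both replicates were summed here, and exons were matched to GRCm38 by the lengths of the exon and its introns. Inclusion is the mean of the reads on both junctions of an exon over that mean plus the skipping reads. Skipping reads lie on the junction between the same outer splice sites. Reads that pass over the exon between other sites, or skip further exons too, are left out. An exon counted as variable at an inclusion of 5% to 95% and 20 or more junction reads. Intervals are exact 95% Clopper-Pearson intervals and cover counting error only. The stretches below are shown because the reads were divided over them. Capitals mark the variable stretch, lower case the 15 bases on either side in the spliced transcript, and every stretch lies inside the coding sequence of the transcript named (GENCODE M21 on GRCm38).
Pcdh11x exon of 30 bases, Pcdh11x-203, chrX:120637595-120637624, plus strand: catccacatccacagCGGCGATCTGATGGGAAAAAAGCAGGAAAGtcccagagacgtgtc
Pcdh11x exon of 24 bases, Pcdh11x-203, chrX:120811140-120811163, plus strand: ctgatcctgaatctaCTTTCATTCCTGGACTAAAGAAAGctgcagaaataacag
Pcdh7 donor stretch of 24 bases, Pcdh7-203, chr5:57913349-57913372, plus strand: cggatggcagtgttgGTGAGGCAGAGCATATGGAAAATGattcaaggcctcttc
Pcdh9 acceptor stretch of 126 bases, Pcdh9-201, chr14:93326755-93326880, minus strand: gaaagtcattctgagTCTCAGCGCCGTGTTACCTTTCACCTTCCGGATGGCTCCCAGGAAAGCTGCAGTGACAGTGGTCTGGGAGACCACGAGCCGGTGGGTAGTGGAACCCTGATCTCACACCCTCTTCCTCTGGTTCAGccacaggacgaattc
Pcdh17 exon of 59 bases, Pcdh17-201, chr14:84477323-84477381, plus strand: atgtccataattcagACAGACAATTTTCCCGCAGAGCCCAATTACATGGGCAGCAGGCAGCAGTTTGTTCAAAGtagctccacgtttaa
Pcdh18 acceptor stretch of 3 bases, Pcdh18-202, chr3:49753626-49753628, minus strand: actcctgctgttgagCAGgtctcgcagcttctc
Pcdh19 acceptor stretch of 3 bases, Pcdh19-201, chrX:133625439-133625441, minus strand: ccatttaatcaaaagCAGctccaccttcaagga
Pcdh19 exon of 141 bases, Pcdh19-202, chrX:133682092-133682232, minus strand: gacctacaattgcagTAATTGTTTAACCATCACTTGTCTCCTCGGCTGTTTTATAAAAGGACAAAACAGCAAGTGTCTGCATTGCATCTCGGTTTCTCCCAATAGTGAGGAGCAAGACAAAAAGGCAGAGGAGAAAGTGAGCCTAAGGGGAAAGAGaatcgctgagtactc
Pcdh15 exon of 15 bases, Pcdh15-226, chr10:74051093-74051107, plus strand: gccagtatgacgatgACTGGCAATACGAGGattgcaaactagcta
Cdh22 donor stretch of 62 bases, Cdh22-201, chr2:165142054-165142115, minus strand: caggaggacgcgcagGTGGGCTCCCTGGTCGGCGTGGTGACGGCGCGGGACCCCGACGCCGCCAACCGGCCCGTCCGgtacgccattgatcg

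Pcdh19 had both a variable exon and a variable acceptor. Its 141-base exon, of 47 codons, was included in 19.3% (13.9% to 25.3%). Its junctions had 44 and 33 reads, and 161 reads skipped it to the next exon. The 3-base acceptor stretch CAG was kept in 144 of the 388 reads that chose between both acceptors from the nearest donor, 37.1% (32.3% to 42.1%). A further 31 reads with CAG and 25 without ran to these acceptors from the donor before the 141-base exon. They pass over that exon and are in neither share. Counting them would lower its inclusion and raise the share with CAG. Transcript Pcdh19-202, which holds both, codes for 1145 codons, 48 more than Pcdh19-203 with 1097. A CAG of the same letters in Pcdh18 was kept in 85 reads and left out in 290, a share of 22.7% (18.5% to 27.2%).

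The variable stretches of the delta-1 genes named here were multiples of 3 bases long, except a 146-base exon of Pcdh11x. This exon had 7 and 5 inclusion reads and 20 skipping reads, an inclusion of 23.1% (8.97% to 43.6%). The 191 reads that join the 24-base exon below to the same acceptor also pass over it and are outside that share. In Pcdh11x the 30-base exon was included in 88.5% (83.3% to 92.5%), with 207 and 161 reads on its junctions and 24 that skipped it. The 24-base exon was included in 91.1% (86.7% to 94.5%), with 220 and 191 reads on its junctions and 20 across it. The longer donor of Pcdh7, which adds the 24 bases shown, took 162 reads and the shorter one 152, so the share of the longer was 51.6% (45.9% to 57.2%). A 96-base exon of Pcdh7 was included in 16.9% (11.9% to 22.9%), counting as skipped only the 162 reads from the longer donor. The 152 reads from the shorter donor and 34 from the third also pass over it and are outside that share. Counting them would lower its inclusion. Of the 413 reads at the acceptor after the exon, 7.02% (4.75% to 9.93%) came from it. This exon does not lie wholly inside the coding sequence of the annotated transcript matched to it, Pcdh7-204. The longer acceptor form of Pcdh9, with 126 more bases or 42 codons, took 102 of 157 reads, 64.97% (57.0% to 72.4%). A 39-base exon of Pcdh1 was included in 9.38% (6.10% to 13.6%). It does not lie wholly inside the coding sequence of the annotated transcript that holds it, Pcdh1-203.

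Among the delta-2 genes the 59-base exon of Pcdh17, which is not of whole codons, was included in 88.6% (85.5% to 91.2%), from 446 and 438 inclusion reads and 57 skipping reads. A second exon of Pcdh17, 84 bases long and in neither annotation used, was included in 20.8% (17.0% to 24.9%), from 108 and 69 inclusion reads and 336 skipping reads. Pcdh8 used 2 donors 291 bases, or 97 codons, apart, with 568 reads on the longer form and 248 on the shorter, 69.6% (66.3% to 72.7%) for the longer. A Pcdh10 donor was joined to 3 acceptors that lead to different last parts of the transcript. Of its 1186 reads 64.0% went to the acceptor of Pcdh10-202, 19.5% to that of Pcdh10-203 and 15.7% to that shared by Pcdh10-201 and Pcdh10-205. The coding sequences of Pcdh10-202, Pcdh10-203 and Pcdh10-201 are 1040, 1047 and 1057 codons long.

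Pcdh15, which reaches over 1550 kb with 41 annotated transcripts, had several variable exons. Its 161-base exon was included in 78.9% (69.0% to 86.8%), from 86 and 56 inclusion reads and 19 skipping reads. The 15-base exon shown was included in 66.2% (53.4% to 77.4%), from 42 and 44 inclusion reads and 22 skipping reads. A 120-base exon in neither annotation used was included in 17.0% (7.65% to 30.8%), from 10 and 6 inclusion reads and 39 skipping reads. Splicing was read across long introns in several genes, with 50 reads over 384 kb in Pcdh15, 322 over 335 kb in Cdh4 and 140 over 325 kb in Pcdh9.

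In total 10 of the 34 genes had a variable exon, and 8 did where the smaller inclusion junction had to reach at least 50% of the larger. The same counts over all genes and exons were not computed, so those given here describe these genes only and show no trait of the families. The 2 that this removes are Cdh7, whose 249-base exon was at 94.9% with 17 and 207 junction reads, and Pcdh8, whose 151-base stretch had 568 and 6. The other 8 genes held 13 such exons, of which 8 were multiples of 3 bases long. Of the 13 exons 6 were included in under 25% and 7 in over 60%, and 6 of the 8 genes were protocadherins. The cadherins among them were Cdh11 and Cdh12. Cdh11 had a 118-base exon at 94.3% (91.4% to 96.4%) that 21 reads skipped and that does not lie wholly inside the coding sequence. Cdh12 had a 188-base exon at 94.7% (82.3% to 99.4%) that 2 reads skipped. Fewer reads fall on low genes, so a variable exon was harder to see there.

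**Figure D2:**
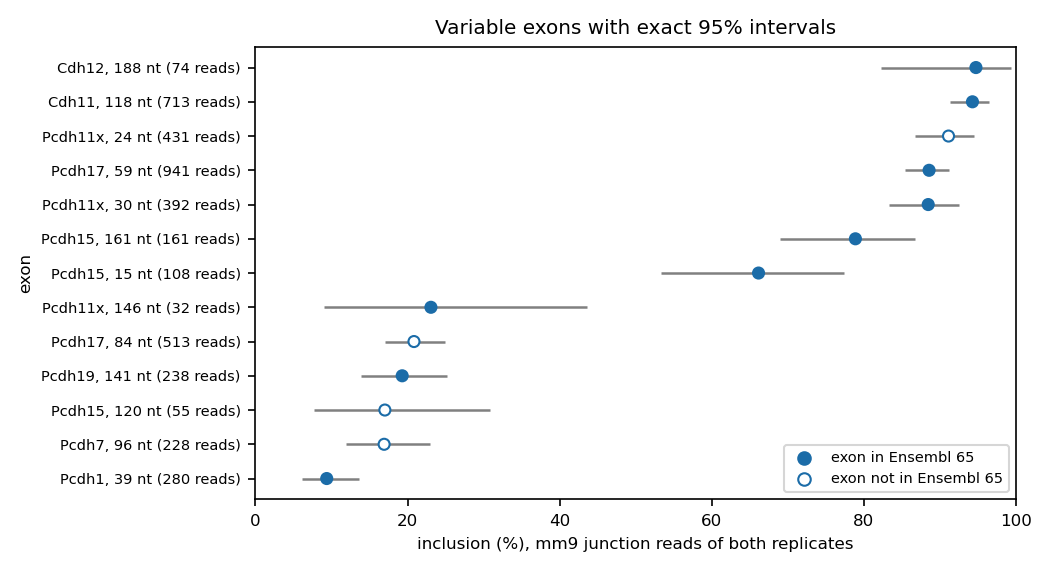
Inclusion in percent of the 13 variable exons with balanced inclusion junctions, from the junction reads of both replicates together, with exact 95% intervals as lines. Filled points are exons of the Ensembl 65 annotation and open points exons outside it. The exons fall into a set under 25% and a set above 60%.

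The deposited transcript tables split each gene's TPM over its annotated transcripts. Of the 29 genes at a mean TPM of 1 or more, 13 had at least 2 transcripts with 10% or more of the gene's TPM in both libraries. Another 8 had 1 annotated transcript. The share over all genes was not computed. In 1 of the 13, Pcdh20, the first 2 transcripts share their coding sequence. Pcdh20-201 took 80.9% and 81.6% of its TPM and Pcdh20-202 19.1% and 18.4%. Shares were close between the libraries for Pcdh8, at 53.4% and 54.9% for Pcdh8-201 (1070 codons) and 38.9% and 38.0% for Pcdh8-204 (973 codons). In Cdh8 the first transcript was Cdh8-204 (711 codons) at 46.9% and 42.7%, followed by Cdh8-203 (799 codons) at 27.3% and 29.2%.

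In Cdh2 and Pcdh9 the transcript with the highest share had no junction read on the intron that sets it apart. Cdh2-202 took 63.5% of the TPM of Cdh2 in replicate 1 and 64.3% in replicate 2, and Cdh2-201 34.8% and 34.1%. Cdh2-202 starts at a first exon of its own and codes for 849 codons against 906. No read lay on the 19459-base intron from that first exon, nor on one within 500 bases of that length at the same acceptor. At the acceptor of the exon both transcripts share, 2039 of 2058 reads (99.1%) came over the 124009-base intron of Cdh2-201. In Pcdh9 the first transcript was Pcdh9-204, at 37.2% in both libraries, ahead of Pcdh9-208 at 28.1% and 29.2%. Pcdh9-204 lacks a 102-base exon, and no read joined the sites across it over 558816 bases, while 102 and 140 reads lay on the introns on either side in Pcdh9-208. The junction table holds 2364 introns of that length or longer, 46 of them with 20 or more reads. The second transcripts Cdh7-208 and Pcdh1-203 also had an intron with no read, of 10613 and 10472 bases, although an intron whose length differs between the builds would be missed by the match on length. In Cdh8 the intron of Cdh8-204 had 30 reads and that of Cdh8-201, the third by share at 18.7% and 18.0%, had 147. Pcdh11x-202 and Pcdh11x-205, the first transcripts of Pcdh11x, together took 69.6% and 69.4% of its TPM, and both lack the 24-base exon shown. The intron that skips this exon had 20 reads, against 220 and 191 on the introns on either side of it. Pcdh11x-202 also lacks the 30-base exon, which 24 reads skipped, against 207 and 161 on its junctions. Pcdh15-234, first in Pcdh15 at 49.95% and 52.9%, holds the intron that skips the 15-base exon. That intron had 22 reads, against 42 and 44 on the junctions of the exon. Pcdh15-226, under which the exon is shown, had 0 TPM in both libraries. Pcdh7-203, with the longer donor, took 75.6% and 77.5%. Pcdh7-206, with the shorter, took 12.2% and 7.47%, and Pcdh7-202 0.69% and 0.66%, while the donors had 162 and 152 reads. The junction counts and the transcript values come from different processing on different builds. What makes them differ was not tested.

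Some transcript pairs moved more between the libraries. Cdh22-201 took 78.3% and 88.7% and Cdh22-202, annotated as a target of nonsense-mediated decay, 21.7% and 11.3%. Of the reads that chose between both Cdh22 donors 24 of 301 used the shorter one, so the 62 bases shown were kept in 92.0% (88.4% to 94.8%). Pcdh11x-202 was at 38.3% and 49.7% and Pcdh11x-205, a form of 496 codons with 276 and 243 expected counts, at 31.3% and 19.7%. Pcdh1-204 (1077 codons) stood at 54.4% and 47.2% and Pcdh1-203 (360 codons) at 36.5% and 44.8%. Introns that Pcdh1-204 holds and Pcdh1-203 lacks had 232, 203 and 196 junction reads. Those that Pcdh1-203 holds and Pcdh1-204 lacks had 27, 21, 0 and 58. Pcdh10-202 was at 46.7% and 52.0% and the noncoding Pcdh10-205 (634 bases) at 27.9% and 22.3%, on 359 and 371 of the 16033 and 22168 expected counts of Pcdh10.

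In other genes the order of the first transcripts changed between the libraries, or noncoding or short forms took large shares. Pcdh19-203 was first in replicate 1, at 35.9% against 28.6% for Pcdh19-201, and second in replicate 2, at 30.6% against 33.9%. In Pcdh12 the retained-intron form Pcdh12-204 took 38.4% and 53.4% and the coding Pcdh12-201 36.0% and 34.9%. TPM divides counts by transcript length, so a short form can take a large share on few counts. In Cdh23 the noncoding Cdh23-206 (438 bases) took 26.3% and 28.1% of TPM on 13.2 and 20.3 expected counts, and Cdh23-216 (1064 bases) 24.0% and 23.9% on 43.5 and 62.2. The coding transcripts of Cdh23 took 20.6% and 23.6% of its TPM but 57.1% and 66.4% of its 813 and 1151 expected counts. In Cdh7 the first was Cdh7-202 (785 codons) at 26.6% and 28.3%, followed by Cdh7-208 (76 codons) at 20.4% and 19.2%. Values per transcript are estimates that rest on the annotation.

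**Figure D3:**
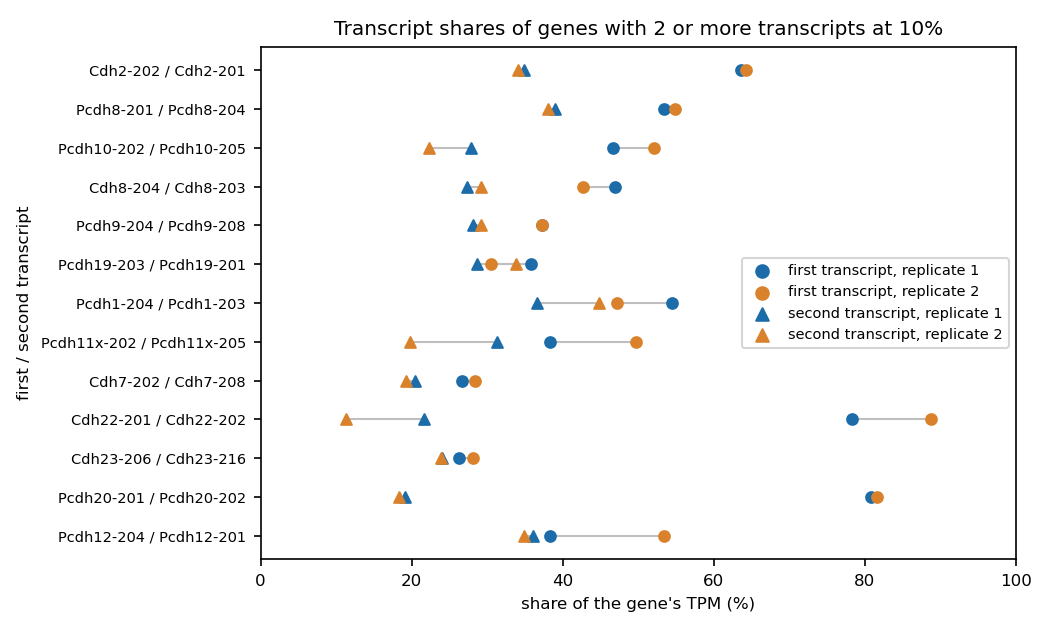
Share of the gene's TPM in percent taken by the first (circles) and second (triangles) transcript of the 13 genes with 2 or more transcripts at 10%, in replicate 1 (blue) and replicate 2 (orange). Cdh2, Pcdh8 and Pcdh20 keep their shares between the libraries, while both Pcdh19 transcripts change places.

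The partners of the cadherins were abundant. Of 12 catenin genes and linked adaptors 11 were detected, led by Ctnnb1 (beta-catenin) at 138 and 144 TPM and Ctnna2, the alpha-catenin of neurons, at 126 and 129, with Ctnna3 of heart and testis lowest at 0.19 and 0.27. All 10 genes of the WAVE complex were detected, with Brk1 at 199 and 204 TPM and Nckap1 at 110 and 108, and Nckap1l, the blood cell form, lowest at 1.17 and 1.35. All 8 genes of cadherin maturation and cleavage were detected, led by Ncstn, a part of gamma-secretase, at 85.9 and 77.9 TPM and Mmp14 at 38.4 and 39.7, with Pcsk6 lowest at 3.55 and 4.57.

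Other adhesion families differed in how many of their genes were detected. All 4 nectins were detected, with Nectin2 at 29.7 and 29.4 TPM, Nectin3 at 22.1 and 22.4 and Nectin4 lowest at 3.29 and 1.74. Of the 12 large and seven-pass cadherin relatives 11 were detected, led by the calsyntenin gene Clstn3 at 103 and 93.5 TPM and the planar polarity gene Celsr3 at 98.3 and 84.5, with Fat2 lowest at 0.07 and 0.30. Of 6 desmosomal cadherins 1 was detected, Dsc2 at 2.76 and 1.53 TPM, followed by Dsg2 at 1.37 and 0.35, and Dsg1a was lowest at 0.04 in both.

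The libraries were set against each other by CPM (counts over library size) scaled with TMM factors, with a prior count of 1, as replicate 2 over replicate 1. Of the 34 genes 33 passed the filter on low counts (Cdh16 did not), which requires expression in both libraries. Past 2-fold were 2 of the 33, beside 3.58% of 18677 genes tested. Of these, 1 was lower in replicate 2, as were 0.937% of the genes tested, and 1 higher, as were 2.64%. The same number, 2, was past 1.5-fold, beside 9.04% of the genes tested. Their median log2 ratio was -0.04, against 0.0020 over all genes tested, with 21 genes lower and 12 higher in replicate 2. Leaving out the TMM factors moves the log2 ratios of all genes alike, and the median was then 0.0045 against 0.0507 over all genes tested, with 16 lower and 17 higher. No direction is given for the 33 genes together. Relative to the median of all genes tested theirs was -0.05 with and without the factors. With 1 library on each side there is no test, and the intervals on ratios cover counting error only.

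Cdh1 had the lowest ratio of the 33 genes. Its 1111 counts in replicate 1 and 565 in replicate 2 gave a log2 ratio of -1.57, or a ratio of 0.338 (exact 95% counting interval 0.304 to 0.374). The 7 other genes of the epithelium list were lower in replicate 2 by TPM as well, with sums of 108 and 3.79 TPM. Krt8 stood at 48.6 and 1.23 TPM, Krt18 at 24.2 and 1.17, and none of the 7 was at 0 in either library. Epcam, an epithelial adhesion gene, stood at 4.16 and 0.70 TPM. The part of epithelial tissue in the level of Cdh1 was not tested. In the mm9 table, whose replicates are not tied to a library, Cdh1 stood at 0.548 and 0.195 RPKM. A list of 7 genes of known Cdh1 repressors was added after the values of Cdh1 were seen. Zeb2 was highest at 41.9 and 37.2 TPM, followed by Zeb1 at 26.4 and 27.0 and Snai1 at 3.48 and 3.47. Twist1 stood at 1.75 and 3.86 TPM, Twist2 at 2.17 and 2.55, Snai2 at 1.04 and 1.40 and Snai3 at 0.01 and 0.20. Their part in the level of Cdh1 was not tested.

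Cdh19 had the highest ratio. Its counts were 59 and 181, a log2 ratio of 1.01 and a ratio of 2.02 (1.51 to 2.78), and the interval reaches well under 2. With a prior count of 5 the log2 ratio was 0.98, and as a ratio of TPM with a pseudocount of 1 it was 0.34, so the call does not hold under these settings. Of 5 genes of Schwann and satellite glia 4 were higher in replicate 2 and 1 lower by TPM, with sums of 1452 and 1631 TPM, and none was at 0. Fabp7, which radial glia also express, made up most of the sum at 1433 and 1603 TPM, and Sox10, a factor of neural crest and oligodendrocyte lineages, stood at 12.1 and 16.1. The part of peripheral nerve in the level of Cdh19 was not tested.

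**Figure D4:**
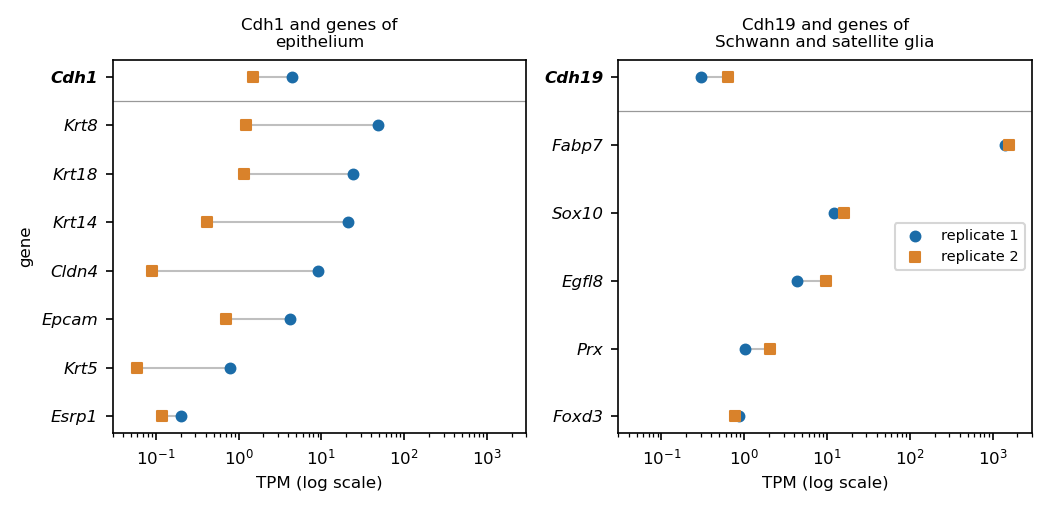
TPM (log axis) of Cdh1 with the 7 other genes of the epithelium list (left) and of Cdh19 with 5 genes of Schwann and satellite glia (right), in replicate 1 (circles) and replicate 2 (squares). Cdh1 and the 7 epithelial genes are lower in replicate 2, and Cdh19 is higher there with 4 of the 5 glial genes.

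The other 31 ratios lay within 2-fold. Pcdh1 was lower in replicate 2, with 4681 and 4928 counts and a ratio of 0.698 (0.671 to 0.727), and Cdh15 higher, with 289 and 579 counts and a ratio of 1.33 (1.15 to 1.54). Skeletal muscle genes, listed above, were higher in replicate 2 by a wider margin than Cdh15, from 14.98 to 634 TPM, and their part in its level was not tested. The 3 highest genes of the families were lower in replicate 2, Cdh2 at a ratio of 0.889 (0.875 to 0.903), Cdh13 at 0.831 (0.812 to 0.852) and Pcdh8 at 0.816 (0.796 to 0.836). Other genes went the other way, among them Cdh8 at 1.09 (1.06 to 1.12), and 12 of the 33 were higher in replicate 2. The 7 cortical neuron genes were all lower, with a median log2 ratio of -0.44. The part of cortical neurons in the ratios of the families was not tested. Pcdh18 was at 0.999 (0.959 to 1.04) and Pcdh19 at 0.993 (0.965 to 1.02). For Cdh26 the unit decided the direction, since 30 and 41 counts gave a ratio of 0.909 (0.552 to 1.503) while its TPM was 0.19 and 0.43. Its retained-intron transcript Cdh26-203 took 0% of its TPM in replicate 1 and 65.1% in replicate 2, on 0 and 4.48 expected counts and a length of 374 bases.

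**Figure D5:**
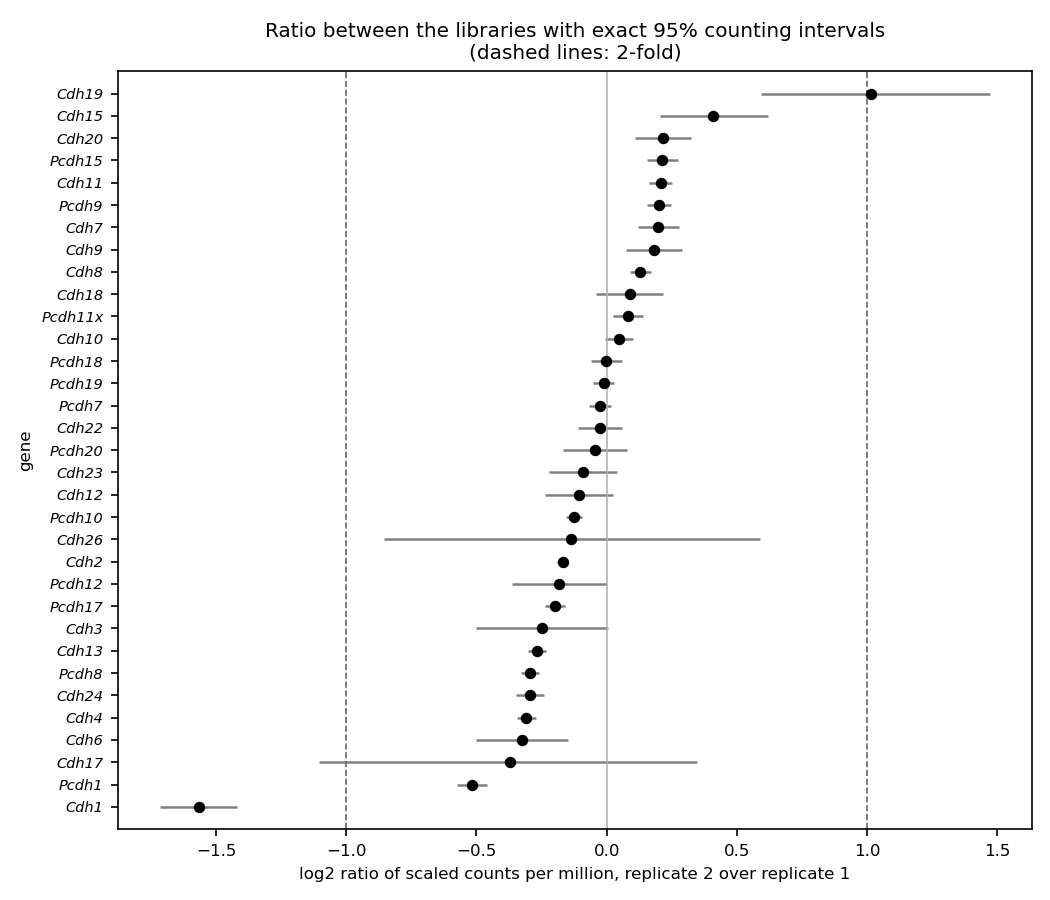
Log2 ratio of scaled CPM in replicate 2 over replicate 1 for the 33 genes that passed the filter, with exact 95% counting intervals as lines and dashed lines at 2-fold. Cdh1 at -1.57 and Cdh19 at 1.01 lie past the dashed lines, and the interval of Cdh1 stays past its line while that of Cdh19 does not.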

How the data were processed

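The labels' protocols describe removal of ribosomal RNA, a poly-A selection, a size limit of over 200 nt and strand-specific paired reads of 101 nt. For every library the authors deposited a gene table and a transcript table on mm10 and GENCODE M4 (deposited read-me) that hold expected counts, TPM and, for genes, FPKM. The names of the aligner and quantifier were not given in the sources used here. RPKM values, as the mm9 gene table calls them, and junction counts were deposited for 2 replicates that the files do not tie to a library.

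Symbols and positions came from GENCODE M21 (42462 genes matched, 884 not). Entries other than genes, 3.62% and 4.01% of the expected counts, stayed out of library sizes. A count of 0 allows up to 3 counts, 0.0319 and 0.0219 CPM, for counting error only. Expected counts were rounded, filtered with filterByExpr and scaled with TMM (edgeR 4.0.16; DESeq2 1.42.0 as an alternative), and checked on simulated data. No coordinates were moved between builds. Exons were matched by length. R 4.3.3, Python 3.11.15, pandas 2.3.3 and SciPy 1.17.1 were used.

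The genes and lists were chosen with earlier results of these data known. Named are every member, the highest 2 and lowest 1 of each pathway list, the highest 2 of each marker list, the first 2 transcripts, and the variable exon with the most reads. Pcdh19, Pcdh11x, Pcdh15 and Pcdh17 exons beyond that, splice sites and other list members were chosen after their values were seen. Drgx was not matched. Some marker genes are not reported here and were left out of their list. Alternatives covered detection levels, units, scalings, prior counts, filters, share and read minimums, and leaving out each replicate.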

Additional observations from a re-analysis of the deposited data

How the results depend on the processing

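Of the 34 genes 27 to 30 were detected under each alternative tried (0.5 or 2 TPM, FPKM, rescaled TPM, 1 library alone). The median TPM of 10.4 ranged from 9.96 to 10.5 when 1 replicate was left out, was 13.5 when TPM was rescaled to nuclear protein-coding genes and 13.2 over genes at a mean TPM of 1 or more. The rescaling raised every gene at 1 TPM or more by 1.29 to 1.30 times and so kept their order. The number of genes past 2-fold was 2, and 1 with a prior count of 5 and 1 with a ratio of TPM at a pseudocount of 0.1 and of 1, where Cdh19 was lost. Without a filter it was 3, with Cdh16 added on 0 and 2 counts. A fold of 1.5, an alternative chosen after seeing the data, also gave 2. The median log2 ratio of -0.04 was 0.0045 with no scaling beyond library size, a setting that moves all genes alike and takes the median of all genes tested from 0.0020 to 0.0507. Genes with 2 or more transcripts numbered 10 to 17 over the alternatives, and those with a variable exon 8 to 11. The count of 8 from exons annotated in Ensembl 65 was chosen after seeing the data. No paired analysis was possible because the series has 1 group. With 2 libraries and no second condition, only ranges can be given.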
